A study of Drosophila melanogaster with 2 samples.

Results

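Weak promoter peaks at genes with no stronger promoter peak were examined in a ChIP-seq study of the Drosophila melanogaster protein CG43347, which the labels also call by its older name CG9817. They were chosen by their deposited signal rank and by position. Each was called in the pooled peak list but lay outside the list thresholded by the irreproducible discovery rate (IDR). Its summit lay within 500 bp of the transcription start site (TSS) of a protein-coding gene, and no coding gene starting there had an IDR-thresholded summit within 500 bp of any of its TSSs. The rule kept 3592 of the 30000 pooled peaks, or 3592 of the 4532 weak peaks at coding starts. The other 940 lay within 500 bp of a TSS of a gene that had an IDR-thresholded promoter peak.

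The study used 1 group, whole embryos aged 10 to 24 h from a transgenic line with a stable C-terminal GFP fusion to the protein. Chromatin was sonicated to 200 to 800 bp and precipitated with an antibody to GFP in 2 biological replicates, numbered 1 and 3. Both replicates carry the transgene, the embryos were not dissected into cell types, and untagged embryos were not analysed here. The 2 replicates have lists of 30000 peaks each, the pooled list has 30000 and the IDR-thresholded list has 5038. Those 5038 peaks are the strongest of the pooled list, so a weak peak here is one ranked below them.

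Fly core promoters fall into broad classes. Promoters of genes active in most cells often carry the DNA replication-related element (DRE, bound by DREF), Motif 1 (bound by M1BP) or Motif 7, and frequently lie between genes that point away from each other. Promoters of developmentally regulated and tissue-specific genes more often carry a TATA box or an initiator at the start site, and some are bound by GAGA factor. BEAF-32, an insulator protein, binds clusters of CGATA, and Zelda, which opens chromatin in the early embryo, binds CAGGTAG.

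The following windows are the parts of the windows of 100 bp either side of the summit that lie outside annotated exons. They are examples from among the stronger weak promoter peaks that hold a motif whose share differed from that of the IDR-thresholded promoter peaks, and some stronger holders are not shown. Letters are from the RefSeq copy of the release 6 assembly (dm6), written 5′ to 3′ in the direction of the gene, with the motif in capitals on whichever strand it was found. The DRE (TATCGATA) stood 5′ of the TSS of alph:
alph, chr3R:29591684-29591830, plus strand: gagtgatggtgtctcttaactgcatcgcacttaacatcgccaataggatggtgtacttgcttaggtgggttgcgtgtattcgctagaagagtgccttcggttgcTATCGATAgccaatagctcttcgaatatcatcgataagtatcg
Motif 7 (CATCNCTA) stood in the windows of sfl, which encodes a heparan sulphate sulfotransferase, and Rph, a rabphilin:
sfl, chr3L:6495521-6495679, plus strand: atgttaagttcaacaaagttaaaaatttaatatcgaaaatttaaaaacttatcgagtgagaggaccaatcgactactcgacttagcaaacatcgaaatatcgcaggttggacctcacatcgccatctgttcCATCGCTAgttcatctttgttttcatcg
Rph, chrX:10757682-10757882, minus strand: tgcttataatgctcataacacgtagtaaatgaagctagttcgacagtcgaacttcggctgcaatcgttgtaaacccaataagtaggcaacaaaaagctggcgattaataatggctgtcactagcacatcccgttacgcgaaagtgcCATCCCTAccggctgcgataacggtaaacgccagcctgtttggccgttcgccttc
The BEAF site (CGATA) stood 2 times in the window of tant:
tant, chr3L:6054926-6055126, plus strand: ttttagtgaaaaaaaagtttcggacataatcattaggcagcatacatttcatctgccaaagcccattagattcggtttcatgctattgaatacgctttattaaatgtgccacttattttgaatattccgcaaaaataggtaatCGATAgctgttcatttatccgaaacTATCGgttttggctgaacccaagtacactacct
GAGAGA stood in the windows of Elal and AnxB10, an annexin:
Elal, chr3R:24865062-24865262, plus strand: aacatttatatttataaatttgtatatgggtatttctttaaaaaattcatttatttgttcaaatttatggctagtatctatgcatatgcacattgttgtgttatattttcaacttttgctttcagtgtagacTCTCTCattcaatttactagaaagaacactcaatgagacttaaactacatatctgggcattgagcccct
AnxB10, chrX:20173684-20173884, minus strand: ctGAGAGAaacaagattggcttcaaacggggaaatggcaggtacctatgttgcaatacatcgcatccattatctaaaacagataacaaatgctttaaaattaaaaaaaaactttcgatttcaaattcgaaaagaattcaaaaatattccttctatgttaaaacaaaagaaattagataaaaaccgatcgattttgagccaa
CAGGTAG stood in the window of Gycbeta100B, a soluble guanylyl cyclase subunit:
Gycbeta100B, chr3R:31134119-31134319, plus strand: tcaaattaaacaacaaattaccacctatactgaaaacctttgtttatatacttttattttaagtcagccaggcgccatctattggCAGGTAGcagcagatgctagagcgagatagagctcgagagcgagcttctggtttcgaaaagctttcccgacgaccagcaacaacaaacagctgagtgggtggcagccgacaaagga
At further peaks of similar signal the motif lay inside an annotated exon, and 30 bases around it are shown for the DRE and Motif 7:
rngo, chrX:16441494-16441523, plus strand: tcccattcaacTATCGATAgtcagaccgcg
CG15561, chr3R:31215925-31215954, minus strand: atagatctgctTATCGATAacaattgcgcc
dop, chr3L:15565999-15566028, plus strand: gcatcaggggtCATCGCTAgtaatgtgacc

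Motif 1 (GGTCACAC) and the TATA box (TATAAA) are shown as 30 bases for peaks named below, chosen after their values were seen because the results on replicates and on start sites turn on them. Motif 1 stood 14 bp upstream of the TSS of RpS9 (small ribosomal subunit protein), 11 bp downstream of that of MED19 (Mediator subunit) and 49 bp upstream of that of trx (Trithorax group methyltransferase):
RpS9, chr3L:9511530-9511559, minus strand: tcaaacactttGGTCACACtaccttcaccc
MED19, chr3L:17846475-17846504, minus strand: tgtcgcaatgcGGTCACACtggttcgcgga
trx, chr3R:14286937-14286966, minus strand: ctaaaatatcgGTGTGACCaggtctgcaca
The TATA box stood 22 to 29 bp upstream of the TSS of rho (rhomboid protease), Hsp23 (small heat shock protein), E(spl)mbeta-HLH (Notch target) and Acp65Aa (cuticle protein):
rho, chr3L:1463774-1463803, plus strand: acagcgagcactTATAAAggccggctgcct
Hsp23, chr3L:9381843-9381872, plus strand: agcgagcggttgTATAAAtaaccggcactt
E(spl)mbeta-HLH, chr3R:26006036-26006065, minus strand: cggcagaggctaTATAAAgccgatcccaga
Acp65Aa, chr3L:6152759-6152788, minus strand: ccgcgagtgcagTATAAAatgcagtggacg

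The deposited signal that chose the weak promoter peaks ran from 36.93 to 129.14, with a median of 54.5, and their pooled ranks ran from 5040 to 29998. The IDR-thresholded peaks at coding starts, 2509 in number, began at 129.19 and had a median of 287. These values are the rule itself and no test was made on them. At the distance limit, 112 weak promoter peaks had their summit in the last 25 bp inside it, and 112 further weak peaks lay in the first 25 bp outside. Peak width differed: 3590 of the 3592 weak promoter peaks were 350 bp wide, against 1243 of the 2509 IDR-thresholded peaks at coding starts.

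The 3592 peaks served 3363 protein-coding genes, 24.1% of the 13945 tested and 31.6% of the 10636 with no IDR-thresholded promoter peak. A further 3309 genes (23.7%) had an IDR-thresholded promoter peak and 7219 (51.8%) had no pooled promoter peak. Most genes had a single weak promoter peak (2764), 507 had 2 and the rest had 3 to 6, with 6 each at CG30015 and Kank, a cytoskeletal adaptor gene with 7 annotated TSSs. Neighbouring peaks were not all separate: 355 of the 3592 (9.88%) overlapped another. Weak-only genes had a median length of 2724 bp, against 3070 bp for genes with an IDR-thresholded promoter peak and 1724 bp for genes with no promoter peak. They had 1 annotated TSS in 65.1% of cases, against 57.8% and 84.5% in those groups, and a gene with more TSSs has more windows in which a peak can fall. On chromosome 4, 1 of 79 genes without an IDR-thresholded promoter peak was weak-only.

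The strongest weak promoter peak lay 25 bp upstream of the TSS of Sgf29, a chromatin reader subunit of SAGA, whose start region is shared with the ribosomal protein gene RpL29. Its signal was 129 in the pooled list, 80.7 in replicate 1 (rank 3212) and 43.7 in replicate 3 (rank 11625). Signals are comparable only within a list, so ranks are the common measure. The peak at RpS15, another ribosomal protein gene, lay 5 bp upstream of the TSS and ranked 3076 in replicate 1 and 9562 in replicate 3. At ATPsynB, an ATP synthase subunit gene, the peak 50 bp upstream ranked 3772 in replicate 1 and 6580 in replicate 3. The peak at the Hox gene Dfd, 407 bp upstream, ranked 3149 in replicate 1 and 16256 in replicate 3. All 4 ranked higher in replicate 1. The order was the other way at sfl, which ranked 12806 in replicate 1 and 5423 in replicate 3, and at CG42514, which ranked 11237 in replicate 1 and 4137 in replicate 3. At the low end, the peak of the neuropeptide gene CCAP had a pooled signal of 36.9 and ranked 22045 in replicate 1 and 28912 in replicate 3, while that of the cuticle gene Cpr78Ca had a counterpart in neither list.

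A counterpart, a replicate peak overlapping by at least 50% of both widths, was found in replicate 1 for 2394 weak promoter peaks (66.6%) and in replicate 3 for 2489 (69.3%). Among all weak pooled peaks these shares were 53.2% and 72.0%. Both replicates held 1514 of the weak promoter peaks (42.1%, 95% Wilson interval 40.5 to 43.8), beside 33.9% of all weak pooled peaks, and 223 (6.21%) were in neither. The 2 sets differ in pooled rank, with a median of 14456 for weak promoter peaks and 17520 for all weak pooled peaks. The part of rank in the difference was not tested. Intervals here cover counting error only, since peaks are not replicates. The pooled list was derived from both replicates, so presence in them describes the lists and does not test reproducibility. By pooled rank, the share in both replicates was 81.4% at ranks 5039 to 10000, 48.4% at 10001 to 15000, 27.0% at 15001 to 20000, 10.8% at 20001 to 25000 and 3.70% at 25001 to 30000. The IDR-thresholded peaks at coding starts cannot be set beside these by the same overlap. At ranks 1001 to 2500 their median width was 186 bp, and only 59.2% passed the 50% overlap in both replicates, whereas 98.4% passed an overlap of 1 bp. With an overlap of 1 bp, a rule added after this was seen for these peaks, 50% of weak promoter peaks and 98.2% of IDR-thresholded peaks at coding starts had counterparts in both replicates. With summits within 100 bp the shares were 34.7% and 95.7%.

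Each replicate ranked some weak promoter peaks high in its own list. In replicate 1, 318 of the 3592 (8.85%) were among its 5038 strongest peaks, beside 2.86% of all weak pooled peaks. In replicate 3, 71 (1.98%) were, beside 2.11% of all weak pooled peaks, and 1 peak was in both. The rule keeps only peaks outside the IDR-thresholded list, so peaks strong in both replicates were largely removed beforehand, and the small overlap follows from that choice. The peaks with the best ranks in replicate 1 included Eaf6, a histone acetyltransferase complex gene, at rank 2634, and drpr, the engulfment receptor gene, at rank 3007, both with no counterpart in replicate 3. The best in replicate 3 included mgl, a lipoprotein receptor gene, at rank 3484, and Esyt2, a synaptotagmin-like gene, at rank 3761, both with no counterpart in replicate 1. The 2 weak promoter peaks of CG17145 shared the same replicate 3 counterpart, at rank 3756.

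Weak promoter peaks holding a DRE, Motif 1 or Motif 7 ranked much higher in replicate 1 than in replicate 3. Of these 349 peaks, 313 (89.7%) had a counterpart in replicate 1 and 220 (63.0%) in replicate 3. Among the 5038 strongest they numbered 119 (34.1%, 29.3 to 39.2) in replicate 1 and 3 (0.860%, 0.293 to 2.50) in replicate 3. Where both replicates held the peak, replicate 1 gave it the better rank in 163 of 190 cases (85.8%), against 933 of 1514 (61.6%) over all weak promoter peaks. For Motif 1 alone the numbers among the strongest were 57 of 140 in replicate 1 and 0 of 140 in replicate 3, where a count of 0 allows a Wilson upper bound of 2.67%. Under matching rules added after the data were seen, the counts for the 349 peaks were 121 in replicate 1 and 4 in replicate 3 with an overlap of 1 bp, and 113 and 3 with summits within 100 bp. Of the 312 peaks at a TATA box, 54.2% had a counterpart in replicate 1 and 72.8% in replicate 3. Over all weak promoter peaks these shares were 66.6% and 69.3%, and over all weak pooled peaks 53.2% and 72.0%. Of the peaks at a TATA box, 9 were among the 5038 strongest in replicate 1 and 5 in replicate 3. With 1 library for each replicate no test separates these libraries, and the part of depth or of the control in the difference was not tested.

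**Figure D1:**
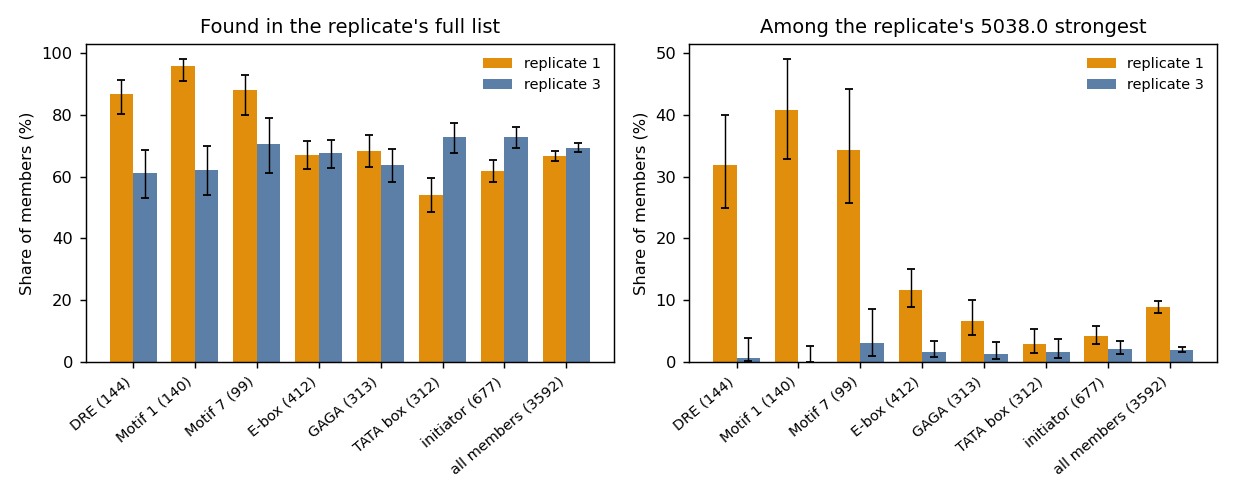
Share of weak promoter peaks (%) with a counterpart anywhere in a replicate's list (left) or among its 5038 strongest peaks (right), by the element they hold, with the number of peaks in brackets and 95% Wilson intervals. Of the peaks with a DRE, Motif 1 and Motif 7, 31.9%, 40.7% and 34.3% are among the strongest of replicate 1, and 0.694%, 0.00% and 3.03% among those of replicate 3.

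Summits of weak promoter peaks straddled the start site. Their median position was 24 bp upstream of the nearest coding TSS (a position of -24, quartiles -171 and 144), against -112 for IDR-thresholded peaks at coding starts (quartiles -188 and -52). The summit lay upstream in 1969 of 3592 weak promoter peaks (54.8%) and in 2177 of 2509 IDR-thresholded peaks at coding starts (86.8%), a difference of -32.0 percentage points (95% Newcombe interval -34.0 to -29.8). Two-sided Fisher's exact test, adjusted over 11 tests by the Benjamini-Hochberg method, gave p = 5.70e-163. The p-values treat peaks as units and describe the peak lists of these 2 replicates. Coding sequence held 621 weak promoter summits (17.3%) and 11 IDR-thresholded ones at coding starts (0.438%), and the 5′ UTR held 25.1% and 13.7%. Peaks found in both replicates were nearer the IDR-thresholded pattern, with 62.7% upstream, against 49.0% of the others. The share upstream was 70.7% at ranks 5039 to 10000 and 41.8% at 25001 to 30000.

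**Figure D2:**
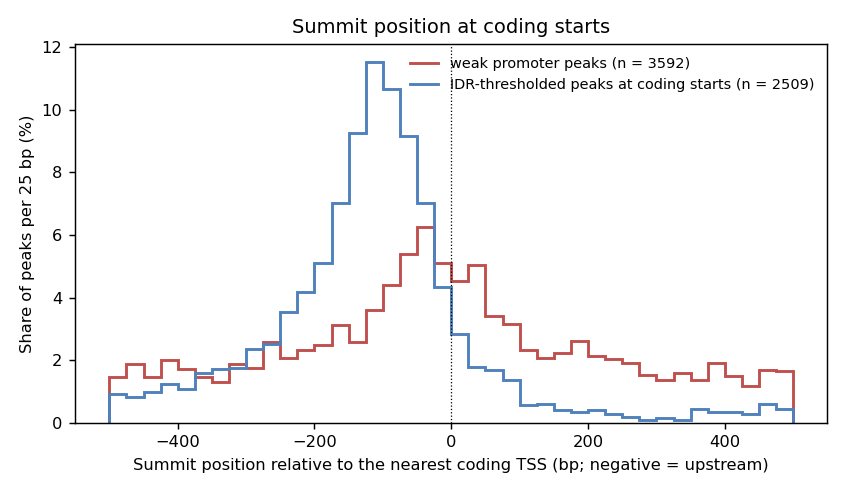
Share of peaks per 25 bp (%) by summit position relative to the nearest coding TSS, for 3592 weak promoter peaks and 2509 IDR-thresholded peaks at coding starts. The weak promoter peaks are highest at 25 to 50 bp upstream (6.26%) and extend past the start site, whereas the IDR-thresholded peaks are highest at 100 to 125 bp upstream (11.5%).

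Few weak promoter peaks lay between genes pointing away from each other. There were 303 (8.44%), against 919 of the IDR-thresholded peaks at coding starts (36.6%). The rule bears on this share, because a weak peak was dropped when either neighbour had an IDR-thresholded peak, so it is given with no test. With the 940 dropped peaks put back, a choice made after the data were seen, the share was 9.22%.

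Of the 7 motifs searched on both strands within 100 bp of the summit, 3 were less frequent in weak promoter peaks than in IDR-thresholded peaks at coding starts, 2 were more frequent and 2 did not pass the test. The DRE was in 144 weak promoter peaks (4.01%) and 205 IDR-thresholded ones at coding starts (8.17%; odds ratio 0.469, Fisher's exact test, adjusted p = 1.77e-11), beside 1.48% of all pooled windows and 0.269% of weak peaks away from coding starts. Motif 7 was in 2.76% and 7.61% (Fisher's exact test, adjusted p = 1.16e-17), beside 2.06% of all pooled windows. CGATA, which every TATCGATA contains, was in 31.5% and 41.6% (Fisher's exact test, adjusted p = 2.32e-15), beside 23.6% of all pooled windows. So the DRE, though rarer than at IDR-thresholded promoter peaks, was above its share of all pooled windows, a comparison that was not tested.

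GAGAGA was in 8.71% of weak promoter peaks and 6.42% of IDR-thresholded ones at coding starts (Fisher's exact test, adjusted p = 0.00129), beside 7.93% of all pooled windows. CAGGTAG was in 1.14% and 0.598% (Fisher's exact test, adjusted p = 0.0357), beside 1.02% of all pooled windows. Both calls were lost under several alternatives, among them the peaks found in both replicates (Fisher's exact test, adjusted p = 0.103 for GAGAGA and 0.368 for CAGGTAG). Motif 1 was in 3.90% and 3.79%, a difference of 0.111 percentage points with an interval of -0.896 to 1.07 (Fisher's exact test, adjusted p = 0.84), beside 1.17% of all pooled windows. Its direction and call depended on the setting. Among the strongest 15000 pooled peaks the odds ratio of Motif 1 was 1.59 (Fisher's exact test, adjusted p = 0.00223). Without replicate 3 it was 0.621 (Fisher's exact test, adjusted p = 3.29e-05), taken against the stronger peaks of replicate 1's own list. The E-box CAGCTG was in 11.5% and 10.4% (interval of the difference -0.580 to 2.60, Fisher's exact test, adjusted p = 0.235), beside 9.89% of all pooled windows. By the same exact test it passed in opposite directions in windows of 50 bp either side (odds ratio 1.56, adjusted p = 3.46e-04) and of 200 bp either side (0.813, adjusted p = 9.63e-04). The windows also differed in base composition, with a GC content of 44.1% ± 9.16 in weak promoter peaks and 35.0% ± 7.18 in IDR-thresholded ones at coding starts (SD over peaks), and the part of this in the motif shares was not tested.

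Start sites of weak promoter peaks carried a TATA box or an initiator more often than those of IDR-thresholded peaks. TATAAA, searched on the gene's strand 20 to 45 bp upstream of the nearest TSS, was at 312 weak promoter peaks (8.69%) and 76 IDR-thresholded ones at coding starts (3.03%; odds ratio 3.05, Fisher's exact test, adjusted p = 6.77e-20). It was at 7.68% of all 19607 coding TSSs and at 11.1% of the 8615 with no promoter peak. TCAGT, an initiator core searched within 10 bp of the TSS, was at 677 (18.8%) and 309 (12.3%; odds ratio 1.65, Fisher's exact test, adjusted p = 1.13e-11), beside 14.1% of all coding TSSs and 13.8% of those with no promoter peak. The TATA box share of weak promoter peaks was therefore near that of all start sites. The units differ, since shares and tests of peaks count a start site again for each peak nearest to it. A TATA box and a DRE, Motif 1 or Motif 7 were together at 6 weak promoter peaks.

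**Figure D3:**
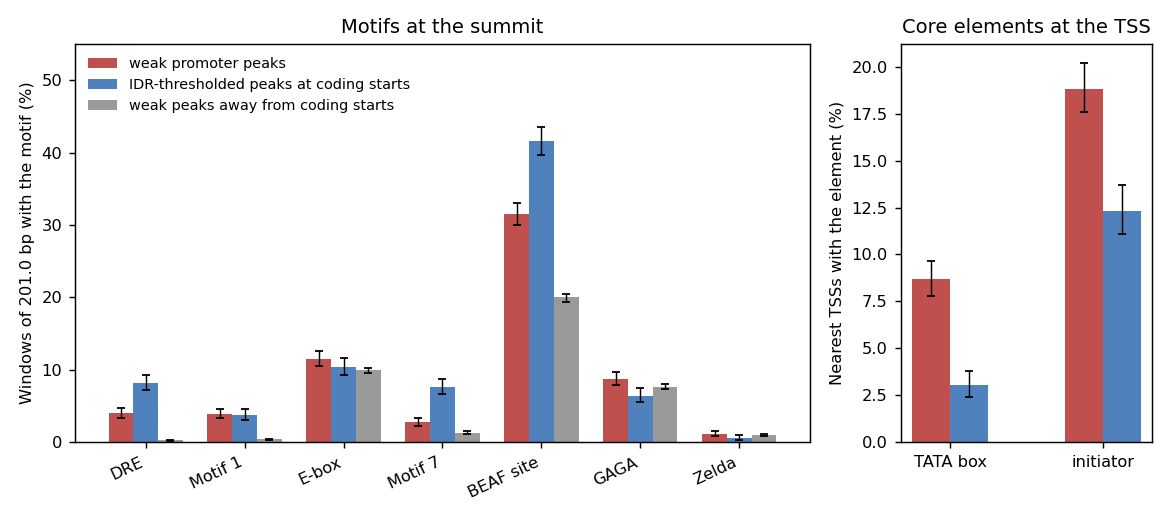
Share of summit windows (100 bp either side) holding each motif (left) and of nearest TSSs with a TATA box (TATAAA) or initiator (TCAGT) (right), in %, with 95% Wilson intervals. The DRE is at 4.01% in weak promoter peaks and 8.17% in IDR-thresholded peaks at coding starts, and the TATA box at 8.69% and 3.03%.

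Summit positions of peaks with different elements follow in part from how the elements were searched. The DRE had to lie within 100 bp of the summit, and its own median position was -45. Peaks holding it had a median summit position of -43 and lay upstream in 80.6% of cases. The TATA box was searched at the nearest TSS, wherever within 500 bp the summit lay. Peaks with a TATA box had a median of 30 bp downstream and lay upstream in 46.2%. The 2 positions are therefore not set against each other. The elements also changed with rank: the DRE was in 7.20% of weak promoter peaks at ranks 5039 to 10000 and 1.36% at 25001 to 30000, while the TATA box was at 5.74% and 10.9%. Motif 1 was in 1.10% of IDR-thresholded promoter peaks at ranks 1 to 1000, 3.67% at 1001 to 2500, 5.46% at 2501 to 5038, and 7.84% of weak promoter peaks at 5039 to 10000, after which it was 3.10% or less. Of the 8 rank bins, the first one below the IDR threshold thus had the highest share with Motif 1. These bins rest on the pooled rank. With a replicate left out, the other replicate's own list was used, and its stronger peaks stood in for the IDR-thresholded ones. Without replicate 3, Motif 1 was in 3.98% of 3917 weak promoter peaks and 6.26% of 2828 stronger ones at coding starts. Without replicate 1 the shares were 3.51% of 3337 and 3.26% of 2329.

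**Figure D4:**
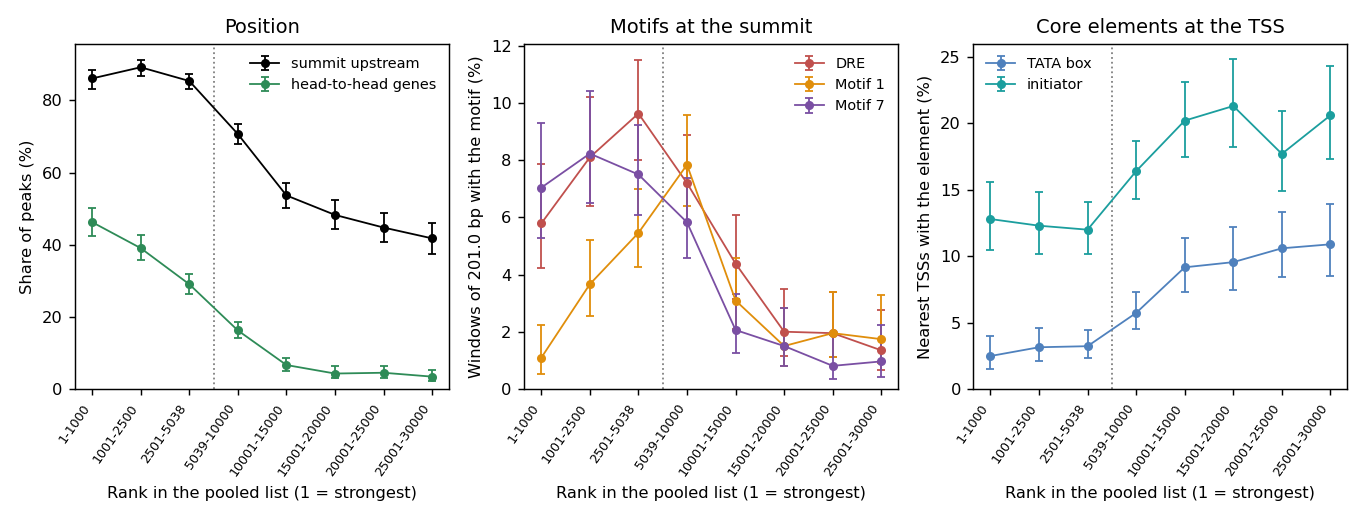
Share of promoter peaks (%) by rank in the pooled list, with 95% Wilson intervals; the dotted line separates IDR-thresholded peaks (left, the strongest) from weak promoter peaks (right). Among the weak bins the share upstream falls to 41.8% in the last, with 70.7% in the first, and Motif 1 is highest, at 7.84%, in the first weak bin.

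Gene lists differed in how many of their genes were weak-only, beside 24.1% of all coding genes. The lists were chosen with earlier results known, and their counts were not tested. A gene with an IDR-thresholded promoter peak cannot be weak-only, so the share of genes without one is also given where many have one; over all coding genes it is 31.6%. Among genes used in most cells, cytoplasmic ribosomal protein genes were weak-only in 9 of 93 and had an IDR-thresholded promoter peak in 70, and mitochondrial ribosomal protein genes in 8 and 39 of 73. Of the genes in these lists without an IDR-thresholded promoter peak, 39.1% and 23.5% were weak-only. Without replicate 1 the weak-only counts were 14 and 13, and without replicate 3 the mitochondrial count was 15. RpS9 had a peak 46 bp upstream, at rank 5901 in replicate 1 and 6627 in replicate 3. Respiratory chain and ATP synthase genes were weak-only in 22 of 82, and 35.5% of those without an IDR-thresholded promoter peak, which 20 had. Proteasome genes were weak-only in 11 of 48, and 31.4% of those without an IDR-thresholded promoter peak, which 13 had. Mediator, TFIID and RNA polymerase II genes were weak-only in 11 of 54. In this list 24 genes had an IDR-thresholded promoter peak, and 36.7% of the others were weak-only. Prosalpha5, a proteasome core subunit gene, had a peak 51 bp upstream with a DRE, at rank 5147 in replicate 1 and 17254 in replicate 3.

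Glutathione S-transferase, cytochrome P450 and cuticle protein genes had few IDR-thresholded promoter peaks, beside 23.7% of all coding genes. Glutathione S-transferase genes, whose products conjugate glutathione to toxins, were weak-only in 21 of 35 (60%, 43.6 to 74.4) and had an IDR-thresholded promoter peak in 2. The weak-only count was 11 at a TSS distance of 250 bp, 10 among the strongest 15000 pooled peaks and 9 with peaks in both replicates. Within them, counted after the values were seen, weak-only genes were 5 of 11 GstD, 9 of 14 GstE, 2 of 3 GstO, 2 of 4 GstT, 2 of 2 GstZ and 1 of 1 GstS genes. How reads of similar family members were assigned is not known from the peak lists, so single members are uncertain. GstE12 had a peak 49 bp downstream, at rank 4276 in replicate 1 and 10725 in replicate 3. Cytochrome P450 genes were weak-only in 26 of 83 (17 without replicate 3), with 5 having an IDR-thresholded promoter peak. Cuticle protein genes were weak-only in 31 of 121 and none had an IDR-thresholded promoter peak. A TATA box was at 19 of their 35 peaks, beside 8.69% of all weak promoter peaks. The share at cuticle protein genes without a peak is not given here. Acp65Aa had its peak 99 bp downstream, at rank 10322 in replicate 1 and 15871 in replicate 3. Chemoreceptor genes were weak-only in 30 of 180 (16.7%, 11.9 to 22.8). These 30 genes had 26 distinct peaks, and the interval counts genes that share a peak separately. Odorant-binding protein genes were weak-only in 10 of 51 (19.6%, 11 to 32.5), and in 6 without replicate 3. At a TSS distance of 250 bp the counts were 19 cuticle, 17 chemoreceptor and 4 odorant-binding protein genes. Among the strongest 15000 pooled peaks they were 11, 8 and 4.

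Developmental and cell type lists were short, so their shares are loose. Neuronal genes were weak-only in 11 of 22 (interval 30.7 to 69.3%) and muscle genes in 10 of 23 (25.6 to 63.2%). Tracheal genes were weak-only in 5 of 10 (3 without replicate 1) and glial genes in 4 of 9. The neuronal count was 7 at a TSS distance of 250 bp, and the glial count was 1 at 1000 bp. At Fas2, a neural adhesion gene, the peak 239 bp downstream ranked 4327 in replicate 3 and had no counterpart in replicate 1. At robo1, the axon guidance receptor gene, the peak 88 bp upstream held a DRE and ranked 4333 in replicate 1 and 17356 in replicate 3. At bnl, the tracheal FGF gene, the peak 109 bp upstream ranked 5491 in replicate 1 and 7307 in replicate 3. Embryos were whole, so the cells that gave these peaks cannot be told apart.

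Most lists of signalling and regulatory genes were near the 24.1% of all coding genes. Hedgehog and Wingless pathway (40.9%) and ecdysone cascade genes (33.3%) were higher. Among genes without an IDR-thresholded promoter peak, several lists exceeded the 31.6% of all coding genes. They included insulator (66.7%), Notch (54.5%), Hedgehog and Wingless (50%) and ecdysone cascade genes (50%). Polycomb and Trithorax (40%), cell cycle (40%) and heat shock genes (35.7%) also did. Segmentation (27.3%), gut, fat body and hemocyte (26.3%), neuroblast (23.8%) and Hox genes did not. Hedgehog and Wingless pathway genes were weak-only in 9 of 22 (5 without replicate 1), segmentation genes in 6 of 24, Notch pathway genes in 6 of 22, neuroblast genes in 5 of 24 and gut, fat body and hemocyte genes in 5 of 20 (3 without replicate 1 and 8 without replicate 3). At wg, the Wnt ligand gene, the peak 130 bp upstream ranked 5832 in replicate 1 and 22907 in replicate 3. At smo, the Hedgehog signal transducer gene, the shared start held a DRE and Motif 1, and the peak ranked 4682 in replicate 1 with no counterpart in replicate 3. Nedd4, a ubiquitin ligase gene, had a peak with Motif 1 at rank 3144 in replicate 1 and 5253 in replicate 3. Ecdysone cascade genes were weak-only in 6 of 18, with EcR, the ecdysone receptor gene, at rank 5118 in replicate 1 and 9789 in replicate 3. Of the remaining lists, Hox genes were weak-only in 2 of 8 (Dfd and lab; 4 without replicate 1), heat shock genes in 5 of 21 (2 without replicate 1), insulator genes in 4 of 16 (1 without replicate 1), Polycomb and Trithorax genes in 6 of 27 and cell cycle genes in 6 of 28.

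**Figure D5:**
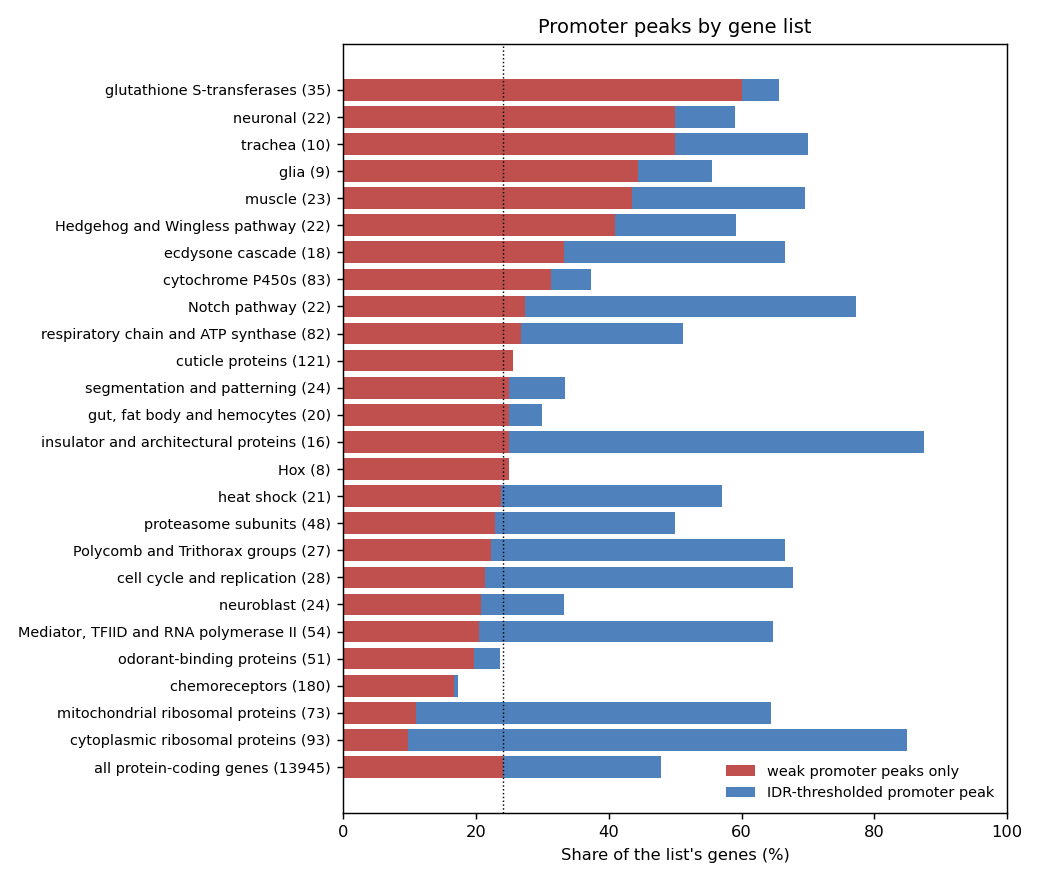
Share of each list's genes (%) with weak promoter peaks only or with an IDR-thresholded promoter peak, with the number of genes in brackets; the dotted line is the weak-only share of all protein-coding genes (24.1%). Glutathione S-transferase genes are at 60% weak-only and cytoplasmic ribosomal protein genes at 9.68%.

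The tagged gene CG43347 (X, 10602641 to 10620190, minus strand) had no promoter peak of its own. Its nearest pooled summit was 659 bp from its TSS, and 3 pooled summits lay within the gene, 1 of them IDR-thresholded.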

How the data were processed

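Peak lists of 2 biological replicates, their pooled list and the IDR-thresholded list were used as deposited, on dm6. The signal of a peak is a score that the authors deposited on an unstated scale, used to rank peaks within a list. The −log10 q beside it was deposited by the authors and only described. The caller, its version and that of the IDR step: not given in the sources used here. Reads and the control were not analysed here, so depth is unknown. TSSs came from Ensembl release 115 (BDGP 6.54) and sequence from RefSeq. Python 3.11.15, scipy 1.17.1, pandas 2.3.3, numpy 2.4.6 and matplotlib 3.10.9 were used, and motif tests were checked on simulated data. Members, gene lists and tests were chosen with earlier results of these data known. Members were compared with IDR-thresholded peaks at coding starts by 11 two-sided Fisher's exact tests with Benjamini-Hochberg adjustment, at a threshold of 0.05; 1 of them, on head-to-head genes, is not reported because the member rule bears on it. Named genes were the tagged gene, the 15 strongest and 3 weakest members, the 5 best ranked in each replicate and up to 3 by signal of each of 25 lists (1114 of 1126 entries matched); the text gives a selection of these. Alternatives changed the TSS distance, rank limit, window, matching rule, gene assignment and replicates used. With a replicate left out, the rule was applied to the other replicate's own list, whose stronger peaks replaced the IDR-thresholded ones. One of the sequences chosen by the rule is not reported here.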

Additional observations from a re-analysis of the deposited data

How the results depend on the processing

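The shares upstream and with a DRE, Motif 7, BEAF site, TATA box or initiator kept their direction and their call under every alternative run, though among the strongest 15000 pooled peaks the odds ratio (weak promoter peaks over IDR-thresholded ones at coding starts) was 0.722 for the DRE and 0.542 for Motif 7. The calls or directions of 4 motifs changed. Motif 1 was at 0.820 with a TSS distance of 1000 bp and 0.592 in windows of 200 bp either side. It was at 0.732 in the 300 bp at the TSS and 0.954 with the dropped weak peaks at coding starts put back. Among the strongest 15000 pooled peaks it was at 1.59, and among peaks in both replicates at 1.44. Of these, all but 0.820 and 0.954 passed the threshold. The E-box was at 1.20 at 1000 bp, 1.56 in windows of 50 bp either side, 0.813 in those of 200 bp and 0.782 at the TSS, and all 4 passed. The GAGA motif lost its call at 1000 bp (1.12), among the strongest 15000 (1.26), in windows of 200 bp either side (1.12) and in peaks of both replicates (1.24). The Zelda motif lost its call at 250 bp (1.96), among the strongest 15000 (1.71), in windows of 50 bp either side (1.22) and in peaks of both replicates (1.44). With a replicate left out, odds ratios were taken against the stronger peaks of the other replicate's own list. They ranged from 0.621 (without replicate 3) to 1.08 for Motif 1 and from 0.990 (without replicate 1) to 1.07 for the E-box. For the GAGA motif they ranged from 1.18 (without replicate 1, call lost) to 1.34. The causes were not tested.

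Among the strongest 15000 pooled peaks there were 1871 weak promoter peaks, 1956 weak-only genes and 149 listed genes, since fewer peaks entered, and 124 listed genes had peaks in both replicates. The share found in both replicates was 46.0% at 250 bp, 38.4% at 1000 bp, 67.8% among the strongest 15000, 50% with an overlap of 1 bp and 34.7% with summits within 100 bp. Of the counts for single gene lists, 58 moved by over 1.5 times and 117 did not. Applied to each replicate's own list, the rule gave 3603 genes in replicate 1 and 3235 in replicate 3, of which 1601 were shared (44.4% and 49.5%). Depth is unknown, so a missing counterpart does not show that a site was unbound.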
